A study of Mus musculus with 16 samples.

Results

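Transcript levels of 35 genes for the synthesis of sterols and fatty acids were followed in mouse epidermis with and without C/EBPβ. The 35 were taken by name: enzymes of cholesterol and fatty acid synthesis, the SREBP regulators and 1 sterol carrier. Their Ensembl identifiers were found among the 49585 genes of the count table, each member had 1 row, and all 35 of 35 passed the filter on low counts. They comprised 6 enzymes of the mevalonate arm, 11 enzymes of squalene and sterol formation, 6 regulators and carriers, 5 enzymes of fatty acid supply and synthesis, and 7 elongases and desaturases.

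Cholesterol is built from acetyl-CoA by way of mevalonate, isoprenoid units, squalene and lanosterol. Fatty acids are built from the same precursor by acetyl-CoA carboxylase and fatty acid synthase, and are then elongated and desaturated. The SREBP transcription factors are held in the endoplasmic reticulum by INSIG proteins when sterols are plentiful, and are escorted to the Golgi by SCAP for cleavage when sterols are scarce. Cornified keratinocytes need cholesterol, fatty acids and ceramides for the barrier of the skin, and sebaceous glands make large amounts of lipid for sebum.

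The libraries came from total RNA of epidermis separated by heat shock from SKH-1 mice aged 8 to 12 weeks, a hairless stock. Control mice carried K5Cre, a Cre recombinase named for keratin 5, and knockout mice (C/EBPB -/-) had a deletion of C/EBPβ restricted to the epidermis. Keratin 5 is a product of basal keratinocytes, hair follicles and sebaceous glands, and the labels name the recombinase for the control alone. Each genotype was sampled unexposed, and 6 h after ultraviolet B (UVB) at 100 mJ/cm2. That gave 4 groups of 4 libraries: control unexposed, knockout unexposed, control UVB and knockout UVB. The labels do not say whether the 4 libraries of a group are separate animals, so p-values measure the spread between these samples.

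Library totals were 33.0 to 53.3 M counts, and the 35 members together took 0.243 to 0.421% of them. Cebpb, the gene deleted, was at 155 to 186 CPM (a count as a share of the scaled library size) in the control unexposed libraries and at 0.177 to 0.875 CPM in the knockout unexposed libraries. After UVB it was at 254 to 320 CPM in the control and at 0.609 to 3.04 CPM in the knockout, so every library matched its genotype label. Keratin 5 (Krt5) was present in every library, at 266 to 1292 CPM. Knockout unexposed library 4 stood apart from its group, with 10.2% of counts from mitochondrial genes against 4.33 to 5.67% in the other 3. The effect of that library on the counts of members is given beside them. The mitochondrial share was also 8.57% in control unexposed library 3, against 5.62 to 6.21% in the rest of its group. After UVB it was 8.57, 5.24, 9.59 and 9.65% in control libraries 1 to 4 and 5.44 to 5.99% in the knockout. The gene Gm42418 took 7.52% of counts in knockout unexposed library 4, 7.93% in control unexposed library 2 and 6.64% in control UVB library 4. In the other libraries it took 0.653 to 4.08%. With libraries thinned to equal depth, 18438 to 19910 genes were detected in control unexposed libraries. In knockout unexposed libraries 1 to 3 it was 20510 to 21150 genes, and in library 4 18827. The part of these imbalances in the genotype differences was not tested. All CPM values use TMM-scaled library sizes, and in bulk RNA a lower value from fewer cells of a type cannot be told apart from less RNA per cell.

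Short promoter letters found in many of the members are shown for 5 members that passed the test in at least 1 comparison below. Scap and Acaca also passed but had no CCAAT, and they are not shown. Msmo1, Dhcr7, Insig1, Idi1 and Srebf1 passed, had CCAAT at 1 start or more, and are not shown either. Fdft1, Scd2 and Stard4 passed but had no promoter sequence. The sequences are RefSeq's, build GRCm38.p6, 5′ to 3′ on the strand of the gene. Each covers up to 180 bases before the start, and ends before any annotated exon. Capitals mark CCAAT or its reverse complement ATTGG and, in Hmgcs1, the sterol regulatory element. In order, the windows are Hmgcs1 at chr13:119690171-119690350 (+), Mvd at chr8:122443423-122443602 (−), Pmvk at chr3:89454361-89454540 (+), Lss at chr10:76531425-76531587 (+) and Fasn at chr11:120824548-120824727 (−).
Hmgcs1: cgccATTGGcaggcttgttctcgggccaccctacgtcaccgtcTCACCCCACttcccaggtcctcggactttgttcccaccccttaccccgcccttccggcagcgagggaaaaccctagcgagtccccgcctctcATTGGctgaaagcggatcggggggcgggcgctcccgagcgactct
Mvd: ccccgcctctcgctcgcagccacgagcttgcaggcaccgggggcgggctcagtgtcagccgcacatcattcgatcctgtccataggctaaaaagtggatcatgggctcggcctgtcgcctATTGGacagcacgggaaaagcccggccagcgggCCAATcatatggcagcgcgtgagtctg
Pmvk: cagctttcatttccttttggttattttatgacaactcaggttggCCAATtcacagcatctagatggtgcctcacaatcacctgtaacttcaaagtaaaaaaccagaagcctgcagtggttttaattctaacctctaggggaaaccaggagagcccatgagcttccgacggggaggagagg
Lss: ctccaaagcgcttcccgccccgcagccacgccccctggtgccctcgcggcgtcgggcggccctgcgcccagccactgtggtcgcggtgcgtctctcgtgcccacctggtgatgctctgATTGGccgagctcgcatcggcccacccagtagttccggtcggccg
Fasn: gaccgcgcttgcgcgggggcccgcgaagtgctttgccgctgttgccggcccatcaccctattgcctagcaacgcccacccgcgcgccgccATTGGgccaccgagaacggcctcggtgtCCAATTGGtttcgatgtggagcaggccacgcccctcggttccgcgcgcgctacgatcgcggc

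Of the 35 members, 28 had a promoter in the RefSeq table, which spans 250 bases before to 50 bases after each start. Letters were searched on both strands, and a gene with several starts counted once. CCAAT, the binding letters of the NF-Y complex, was in 23 of the 28, against 41.1% of the 27025 genes in the table. Within the 100 bases before the start it was in 19 of the 28, against 21.6% of genes. The 5 without it were Scap, Acaca, Scd3, Elovl6 and Fads2. The GC box GGGCGG, bound by Sp1, was in 21 of the 28 against 38.2% of genes, and the E-box CACGTG in 6 against 8.1%. The sterol regulatory element TCACNCCAC was in 1 member, Hmgcs1, against 1.4% of genes. The C/EBP palindrome TTGCGCAA was in 0 of the 28 against 0.2% of genes. Its looser form TTNNGCAA was in 2, Dhcr7 and Nsdhl, against 12.2% of genes. In Nsdhl that match overlapped a CCAAT, the only overlap between different motifs among the members. A match is a run of letters, not a bound site, and these counts have no test. Fads1, Fdft1, Fdps, Scd1, Scd2, Sqle and Stard4 were not matched.

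The members spanned a wide range of levels. Per kilobase of annotated exon, the mean of the control unexposed libraries was highest for Pmvk (78.3 CPM per kb), Hmgcs1 (74.6), Cyp51 (62.9) and Dhcr7 (49.3). Scd1, Sqle, Mvd, Acly, Scd2, Insig2, Mvk, Elovl6, Ebp, Srebf2 and Fdft1 followed at 36.9 to 30.1 CPM per kb. At the low end were Acss2 (0.985), Fdps (0.885), Fads1 (0.566) and Fads2 (0.0545). In this order of 35, neighbours overlapped in range over the 4 libraries except at 5 places: Cyp51 was wholly above Dhcr7, Stard4 above Scap, Hsd17b7 above Acaca, Fdps above Fads1 and Fads1 above Fads2. The counts of Fdps are uncertain, because 26.7% of its exon bases overlap Gm43738 on the same strand and near copies of a gene can split its reads. Fdft1 overlaps Ctsb on the opposite strand over 18.3% of its exon bases, Tm7sf2 overlaps Vps51 on the same strand over 12.1%, and Scd1, Scd2 and Scd3 are close paralogs, so their levels carry the same doubt. Whether the counting used strand is not given in the sources used here.

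**Figure D1:**
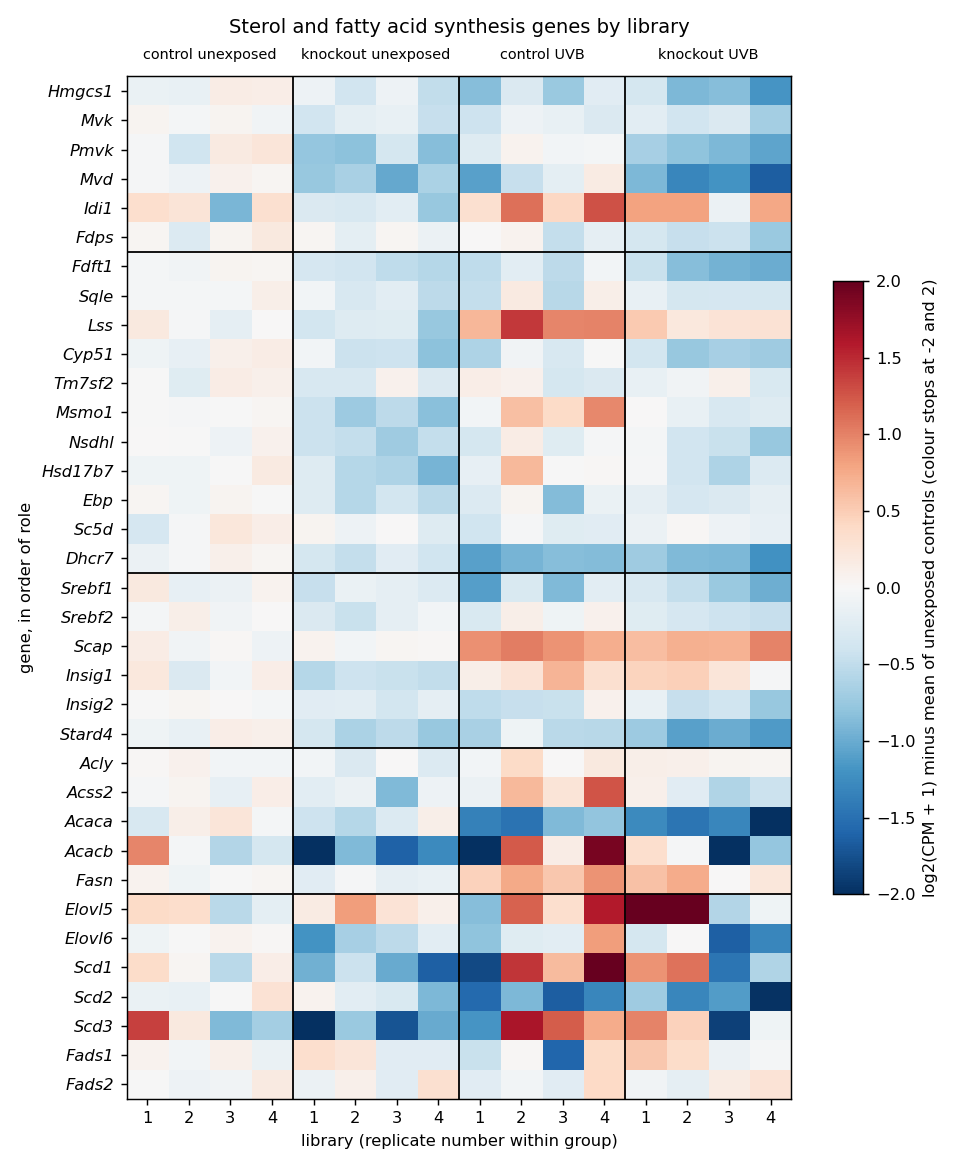
Each member (rows, grouped by role) in each of the 16 libraries (columns, grouped by genotype and exposure), coloured by log2(CPM + 1) minus the mean of the 4 control unexposed libraries. The knockout unexposed columns are mostly below 0 in the mevalonate and sterol rows, and Scd1, Scd3, Acacb and Elovl5 vary most between libraries of 1 group.

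Without UVB, 4 of the 35 members were lower in the knockout than in the control, Mvd, Pmvk, Msmo1 and Stard4, and 0 were higher (edgeR quasi-likelihood test, adjusted p under 0.05 over 17741 genes). Across all tested genes 1.14% were lower and 0.964% higher by the same rule. The estimate was negative for 31 of the 35 members, with a median log2 fold change of -0.34 against 0.0022 over all tested genes. At an unadjusted p under 0.05, 14 members were lower and 0 higher, against 6.75% and 5.69% of all tested genes. DESeq2 and limma voom also called 0 higher. The summed level of the members was 3698 to 4036 CPM in the control and 2760 to 3117 CPM in the knockout libraries, which do not overlap. That gap depends on the TMM scaling. As a share of raw counts the members took 0.355 to 0.421% in the control and 0.245 to 0.367% in the knockout libraries, which overlap. The TMM factors were 0.9156 to 1.043 in the control, 1.121 to 1.255 in knockout libraries 1 to 3 and 0.8888 in knockout library 4.

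In 15 members all 4 knockout libraries were below all 4 control libraries, and in 0 were they all above. Over all tested genes the shares were 5.36% below and 4.64% above. The 15 were Mvd and Mvk of the mevalonate arm, 8 sterol enzymes (Fdft1, Sqle, Lss, Msmo1, Nsdhl, Hsd17b7, Ebp and Dhcr7), Insig1, Insig2, Stard4, Acacb and Elovl6. The 4 calls depended on single libraries, to unlike degrees. Of the 16 refits that left out 1 library, 12 kept Pmvk (edgeR adjusted p = 0.013) and 10 kept Stard4 (0.0335). Just 4 kept Mvd (0.0476) and 4 kept Msmo1 (0.0432), the 2 calls nearest the threshold. None remained without control unexposed library 3, control unexposed library 4 or knockout unexposed library 2. Just 1 remained without control unexposed library 1 or knockout unexposed library 1, 3 or 4, and 2 without control unexposed library 2, control UVB library 3, or knockout UVB library 2 or 3. In these 16 refits 30 to 33 members had a negative estimate. Without knockout unexposed library 4 the count was 32, and the median was -0.33.

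After UVB, 6 members were lower in the knockout than in the control: Pmvk, Mvd, Fdft1, Lss, Msmo1 and Stard4. None was higher by edgeR, DESeq2 or limma voom. At an unadjusted p under 0.05, 10 were lower and 0 higher, against 9.12% and 11.1% of all tested genes. Of all tested genes 2.32% were lower and 2.36% higher. The estimate was negative for 28 members, with a median of -0.29 against 0.04 over all tested genes. In 3 members, Lss, Pmvk and Stard4, the 4 knockout libraries were all below the 4 control libraries, and in 0 all above, against 4.84% and 6.47% of all genes. The count of lower members was 3 without knockout UVB library 3 and 3 to 7 over the 16 refits. Without knockout unexposed library 4 it was 7, with Acss2 beside the 6 above. With only the 2 compared groups in the model, 2 of the 6 passed, and Mvd, Fdft1, Msmo1 and Stard4 did not (edgeR adjusted p = 0.0539, 0.111, 0.0562 and 0.0636). The median was -0.19 without control UVB library 2.

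The comparison without UVB and the comparison after it share no library. They came from the same fit of all 16 libraries, with a common scaling and estimate of spread, so their calls are not independent. In both comparisons, 27 of the 35 members (77.1%) had a negative estimate, against 30.5% of all tested genes. Mvd, Pmvk, Msmo1 and Stard4 passed the test in both.

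**Figure D2:**
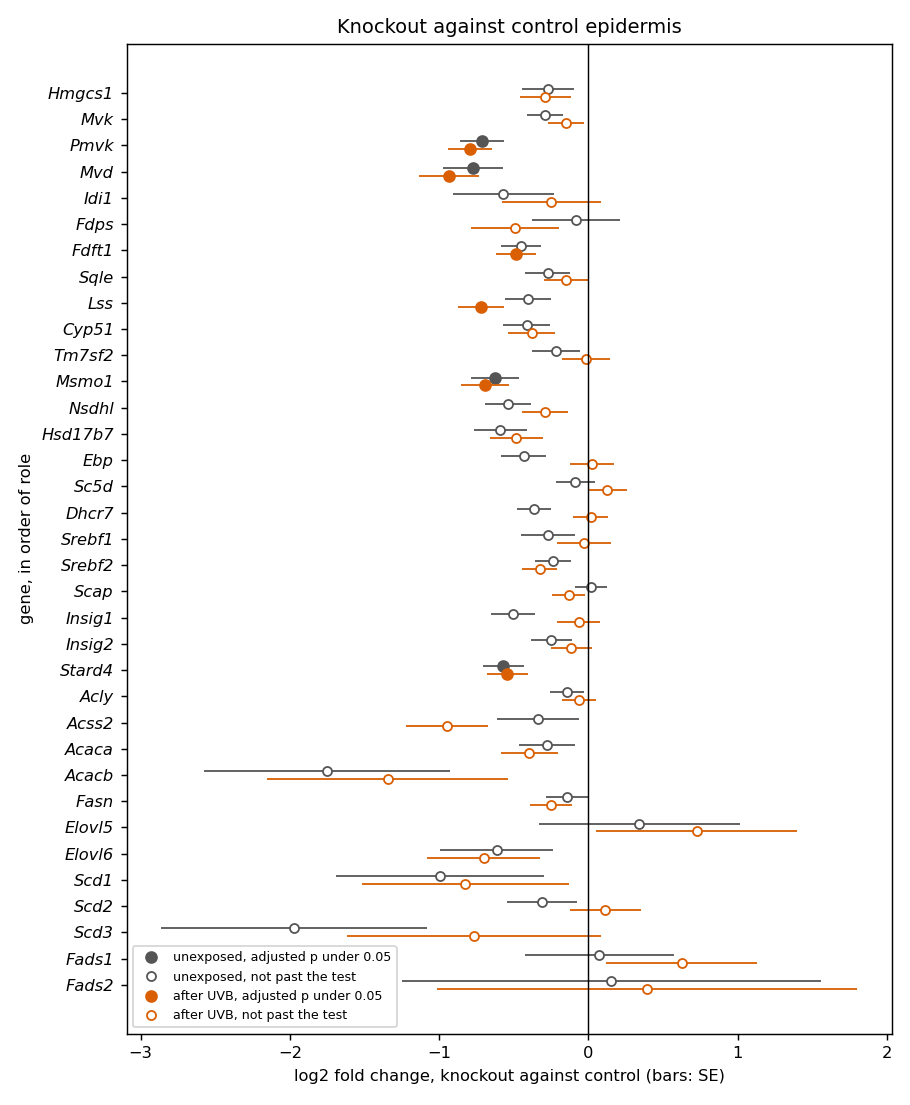
Log2 fold change of every member, knockout against control, without UVB and after UVB (x axis, points with bars of ±1 SE), with the members grouped by role on the y axis. Filled points passed the edgeR test at an adjusted p under 0.05; 4 did so without UVB and 6 after UVB, all below 0.

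In the mevalonate arm the 6 estimates were all negative in both comparisons, and 2 of 6 passed the test in each. Pmvk, the kinase that makes mevalonate diphosphate, was at 129.8, 101, 149 and 157 CPM in the control unexposed libraries and at 76.7, 74.1, 104 and 72.7 CPM in the knockout unexposed libraries. Knockout library 3 was the highest of its group and exceeded the lowest control, so the groups overlapped by that pair. Its log2 fold change was -0.71 ± 0.15 (SE, n = 4 and 4, edgeR adjusted p = 0.013), 1.64-fold lower. After UVB Pmvk was at 110.3, 139, 127 and 129 CPM in the control and at 82.8, 74.9, 70.3 and 63.1 CPM in the knockout, with no overlap. That difference was -0.79 ± 0.15 (edgeR adjusted p = 0.00363), and it kept its call in all 16 refits that left out 1 library.

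Mvd, the decarboxylase that yields isopentenyl diphosphate, was at 63.9, 60.3, 69.3 and 66.6 CPM in the control and at 38.0, 41.2, 31.4 and 41.6 CPM in the knockout without UVB. Every knockout library was below every control library, and the log2 fold change was -0.77 ± 0.20 (edgeR adjusted p = 0.0476). After UVB the control libraries spread from 29.9 through 47.0 and 56.4 to 72.9 CPM, and the knockout libraries were at 34.3, 25.7, 27.9 and 20.1 CPM. Control UVB library 1 lay among the knockout values. The difference after UVB was -0.93 ± 0.20 (edgeR adjusted p = 0.0108), and it was called in all 16 refits that left out 1 library, though not with the 2 compared groups alone.

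Hmgcs1, which makes HMG-CoA, did not pass the test between genotypes. It was at 310.3, 308, 377 and 376 CPM in control unexposed libraries and at 317, 262, 318 and 241 CPM in knockout unexposed libraries. The groups overlapped, and the log2 fold change was -0.27 ± 0.17 (edgeR adjusted p = 0.613). After UVB it was -0.29 ± 0.17 (adjusted p = 0.368). Mevalonate kinase (Mvk) was 85.8 to 93.8 CPM in control and 65.6 to 81.8 CPM in knockout unexposed libraries, groups that did not overlap, yet its estimate of -0.29 ± 0.12 did not pass (edgeR adjusted p = 0.294). Idi1, the isopentenyl diphosphate isomerase, and Fdps, farnesyl diphosphate synthase, were low throughout, at 2.24 to 13.7 and 1.81 to 4.35 CPM, and passed in neither comparison.

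**Figure D3:**
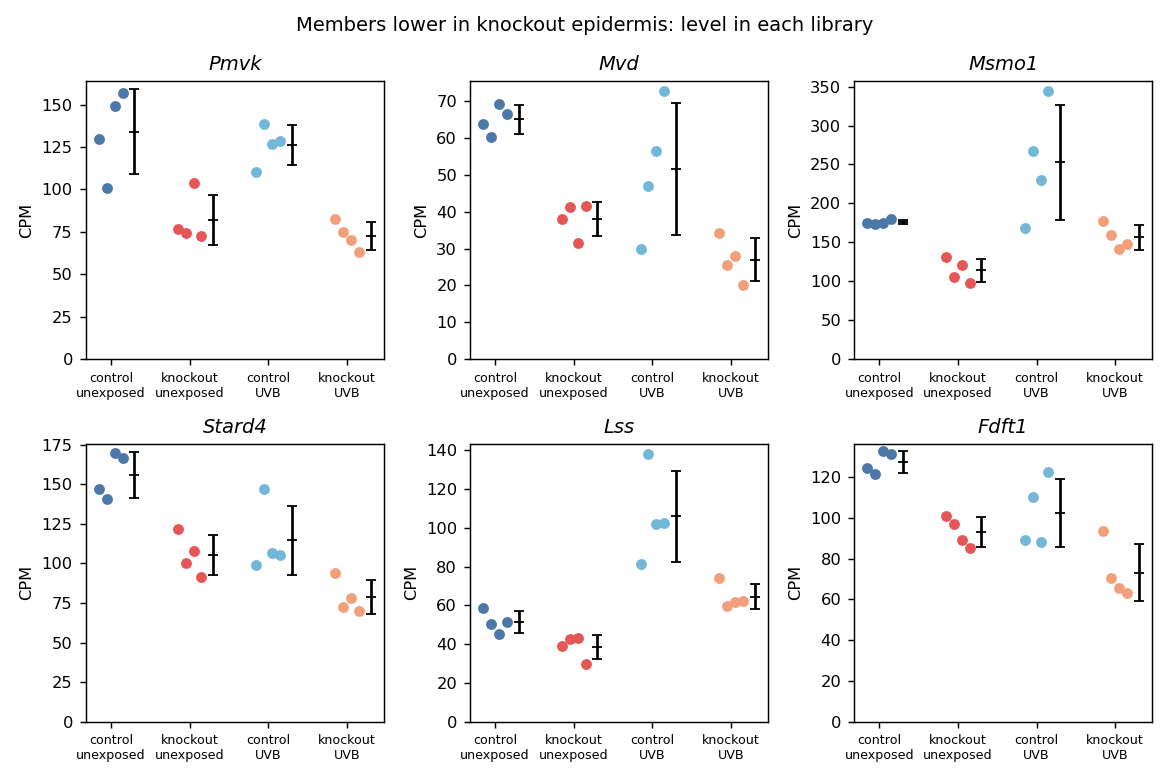
CPM of 6 members in each library (points), by group on the x axis, with the group mean ± SD drawn beside them. These are the members that passed the knockout test after UVB; the 4 knockout UVB points are all below the 4 control UVB points for Lss, Pmvk and Stard4.

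Among the 11 enzymes from squalene to sterol, all 11 estimates were negative without UVB, and 1 passed. After UVB 8 of the 11 were negative and 3 passed. Msmo1, the C4 methyl oxidase that acts on lanosterol-derived sterols, was at 175, 173, 175 and 180.1 CPM in the control and at 131, 106, 121 and 97.8 CPM in the knockout without UVB. The control libraries were close together, and all 4 knockout libraries were below them. Its log2 fold change was -0.63 ± 0.16 (edgeR adjusted p = 0.0432). After UVB Msmo1 was at 169, 267, 229.7 and 345 CPM in the control and 177, 159, 141 and 147 CPM in the knockout, where control library 1 fell below knockout library 1. The difference was -0.69 ± 0.16 (adjusted p = 0.0149), and it was not called without knockout UVB library 3.

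Lss, lanosterol synthase, closes the sterol ring. Its levels were 58.7, 50.4, 45.3 and 51.4 CPM in control unexposed libraries and 39.3, 42.8, 43.3 and 29.8 CPM in knockout unexposed libraries. These did not overlap, but the log2 fold change of -0.41 ± 0.15 did not pass (edgeR adjusted p = 0.222). After UVB the control libraries were at 81.4, 138, 102 and 103 CPM, all above the knockout libraries at 74.1, 59.6, 61.8 and 62.5 CPM. That difference of -0.72 ± 0.15 passed (adjusted p = 0.00998) and kept its call in all 16 refits.

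Fdft1, squalene synthase, was at 124, 122, 133 and 131 CPM in control and 101, 97.1, 89.1 and 85.2 CPM in knockout unexposed libraries, with no overlap. The log2 fold change was -0.45 ± 0.13 (edgeR adjusted p = 0.0905). After UVB it was at 89.1, 110.1, 88.3 and 122 CPM in the control and at 93.6, 70.4, 65.5 and 63.3 CPM in the knockout. Knockout library 1 was within the control range. The estimate was -0.49 ± 0.13 (adjusted p = 0.041), a call that 10 of the 16 refits lost.

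Sqle, squalene epoxidase, was at 193, 194, 194 and 214 CPM in the control and 190.2, 159.5, 171 and 137 CPM in the knockout without UVB. The groups did not overlap, and the estimate was -0.27 ± 0.15 (edgeR adjusted p = 0.514). After UVB the control libraries were split, at 142 and 134 CPM in libraries 1 and 3 and at 225 and 216 CPM in libraries 2 and 4, around knockout libraries at 179.7, 156, 157 and 155 CPM. Ebp, the sterol isomerase, was at 79.8, 72.5, 80.2 and 76.9 CPM in the control and at 64.8, 51.9, 59.7 and 52.7 CPM in the knockout without UVB. After UVB its control libraries were at 63.8, 79.9, 42.0 and 70.3 CPM and its knockout libraries at 68.1, 61.3, 62.9 and 68.0 CPM, and the 2 groups overlapped. Of the later steps, Nsdhl, the C4 dehydrogenase, had an estimate of -0.54 ± 0.15 (adjusted p = 0.0761) and Hsd17b7, the 3-keto reductase, of -0.59 ± 0.18 (adjusted p = 0.0937) without UVB, both without overlap. The C5 desaturase Sc5d had the smallest estimate of the 11, -0.09 ± 0.13.

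Of the 6 regulators and carriers, 1 passed the test between genotypes, in both comparisons. Stard4, a carrier that moves cholesterol between membranes, was at 147, 141, 169.8 and 167 CPM in control unexposed libraries and 121, 100.0, 108 and 91.5 CPM in knockout unexposed libraries, with no overlap. It was lower by -0.57 ± 0.14 on the log2 scale (edgeR adjusted p = 0.0335). After UVB its control libraries were at 99.2, 147, 106 and 106 CPM and its knockout libraries at 93.8, 72.5, 77.97 and 70.1 CPM, again with no overlap, and the estimate was -0.54 ± 0.14 (adjusted p = 0.0261). The estimate after UVB was not called without control UVB library 2 or knockout UVB library 2, 3 or 4.

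Srebf2 encodes SREBP-2, the main activator of cholesterol genes. It was at 212, 236, 208 and 219 CPM in control unexposed libraries and at 179, 159.7, 193 and 211 CPM in knockout unexposed libraries, with knockout library 4 the only one above the lowest control. After UVB the control was at 176, 238, 206 and 233 CPM and the knockout at 184, 172, 164 and 158 CPM. The log2 fold changes were -0.24 ± 0.12 and -0.33 ± 0.12 (edgeR adjusted p = 0.434 and 0.116). Srebf1, whose product SREBP-1 acts mainly on fatty acid genes, was at 81.6, 63.4, 65.3 and 74.5 CPM in control unexposed and at 51.2, 64.3, 62.5 and 58.1 CPM in knockout unexposed libraries, which overlapped. Scap, the SREBP escort, had estimates of 0.02 ± 0.11 and -0.13 ± 0.11. Insig1, itself a known SREBP target, was lower without overlap in the knockout without UVB, but its estimate of -0.50 ± 0.15 did not pass (adjusted p = 0.084). After UVB its estimate was -0.07 ± 0.15.

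No gene of fatty acid supply and synthesis passed the test between genotypes, although all 5 estimates were negative in both comparisons. Fasn, fatty acid synthase, was at 167, 151, 158 and 164 CPM in control unexposed and 137, 157, 141 and 143 CPM in knockout unexposed libraries. Knockout library 2 lay within the control range, and the log2 fold change was -0.15 ± 0.14 (edgeR adjusted p = 0.825). Acss2, which makes acetyl-CoA from acetate, came nearest after UVB, with an estimate of -0.95 ± 0.27 (adjusted p = 0.0508). Acacb, the carboxylase of the mitochondrial surface, had an estimate of -1.75 with an SE of 0.83 without UVB, where control libraries were at 9.46 to 29.9 CPM and knockout libraries at 2.14 to 7.52 CPM.

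The 7 elongases and desaturases passed in neither comparison, and their estimates had both signs. Scd1, the main stearoyl-CoA desaturase of skin, was at 228, 181, 121 and 194 CPM in control unexposed and at 89.6, 131, 86.9 and 56.2 CPM in knockout unexposed libraries. Knockout library 2 exceeded control library 3. Scd1 after UVB ranged from 49.8 CPM in library 1 through 274 and 478 to 767 CPM in library 4 of the control, and was at 329.9, 377, 63.0 and 115 CPM in the knockout. With SEs of 0.70 and 0.69, its estimates of -0.99 and -0.83 had edgeR adjusted p-values of 0.684 and 0.573. Elovl6, which elongates palmitate, was at 203 to 228 CPM in control and 93.5 to 186 CPM in knockout unexposed libraries, without overlap, at -0.61 ± 0.38.

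Markers of skin cells moved with genotype as well. Of 7 basal keratinocyte markers, 2 were higher in the knockout without UVB and 4 after UVB (edgeR, same rule). Their summed level was 1853 to 2711 CPM in control and 2797 to 6552 CPM in knockout unexposed libraries, and 1846 to 3936 against 4558 to 6496 CPM after UVB. Of 6 granular keratinocyte markers, 1 was lower without UVB and 3 after it, with sums of 30520 to 45080 against 20570 to 35120 CPM and then 25360 to 28990 against 14450 to 18850 CPM. Of 6 tested fibroblast markers 1 (Postn) was higher in each comparison. Their sums were 43.1 to 81.7 against 106 to 354 CPM and then 18.7 to 40.7 against 96.1 to 119 CPM. Postn carried most of each sum, at 42.4 to 80.5 CPM in control and 103 to 349 CPM in knockout unexposed libraries. Of 8 Langerhans and myeloid markers 1 was higher without UVB and 3 after it. Of 13 hair follicle markers 0 were called between genotypes in either comparison, with 12 negative estimates and a median of -1.38 without UVB, and 10 negative and a median of -0.28 after it. Their sums were 642 to 2443 CPM in control and 318 to 719 CPM in knockout unexposed libraries, and 1117 to 5531 and 234 to 4394 CPM after UVB. With UVB in the knockout 12 of the 13 estimates were positive, with a median of 2.0, and 3 passed (Krt75, Krt28 and Shh). Of 5 T cell markers 0 were called between genotypes. All 5 estimates were negative without UVB and 3 were positive after it. With UVB 3 were higher in the knockout (Trdc, Tcrg-C1 and Cd7) and 1 lower in the control (Cd3g). The sums of the T cell markers were 49.5 to 66.6 and 20.1 to 53.6 CPM in control and knockout unexposed libraries, and 41.0 to 56.2 and 35.6 to 80.3 CPM after UVB. Of 3 tested adipocyte markers 0 were called between genotypes without UVB, with 2 negative estimates and a median of -1.52. After UVB 1 was lower in the knockout, with 3 negative estimates and a median of -2.31. The 10 listed adipocyte markers summed to 9.49 to 25.8 against 3.31 to 7.87 CPM and then 21.2 to 49.9 against 4.20 to 26.0 CPM. Of these, Adipoq, Lep, Cfd and Plin1 were at or near 0 in every library. Of 5 melanocyte markers 0 were called between genotypes, and all 5 estimates were negative in both comparisons, with medians of -1.115 and -0.915. Of 5 tested suprabasal keratinocyte markers 0 were called without UVB, with 3 negative estimates and a median of -0.39. After UVB 1 was lower, with 4 negative estimates and a median of -0.24. The part of all these shifts in the members' differences was not tested.

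Sebaceous gland markers also varied within groups. The mean of log2(CPM + 1) over 16 markers, with no member among them, was 3.91 to 4.90 in control unexposed and 2.72 to 3.85 in knockout unexposed libraries, which did not overlap. After UVB it was 3.51, 5.23, 5.04 and 6.00 in control libraries 1 to 4 and 5.29, 5.18, 3.22 and 4.27 in knockout libraries 1 to 4. Their summed CPM, carried mostly by Krt79 and Acsbg1, was 1497 to 2065 in control and 1646 to 2053 in knockout unexposed libraries, and 1049 to 2605 and 1656 to 3358 after UVB. Plin5 was at 0 in all unexposed libraries and Mc5r at or near 0 throughout. Of the 15 markers tested, 0 were lower and 0 higher in the knockout without UVB (2 and 12 with positive and negative estimates). The median log2 fold change was -0.91. After UVB 1 was higher, Krt79, and 0 were lower. Of the estimates after UVB, 3 were positive and 12 negative, with a median of -0.72.

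Some members ordered the libraries much as these markers did. Within the 4 groups there are 24 pairs of libraries, and a gene was scored by the number of pairs that it ordered as the marker mean did, a measure chosen after the values were seen. Of the 12 members of fatty acid supply, synthesis, elongation and desaturation, Acacb ordered 23 of the pairs alike, Fasn 22, Scd3 21, and Scd1, Elovl5 and Acss2 20. The other 6 scored lower, with Fads1 at 16, Elovl6 and Fads2 at 15, Acly at 14, Scd2 at 13 and Acaca at 11. Among regulators and carriers Srebf1 ordered 21, Insig1 18, Srebf2 16, Insig2 15, Stard4 11 and Scap 7. The sterol and mevalonate enzymes ranged from 19 for Idi1, 18 for Lss and 17 for Nsdhl, through 16 for Msmo1 and 15 for Pmvk and Mvd, to 8 for Tm7sf2. The median over all tested genes was 12, and 1.06% of genes reached 20. These pairs share libraries and their composition, so the counts are a description.

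**Figure D4:**
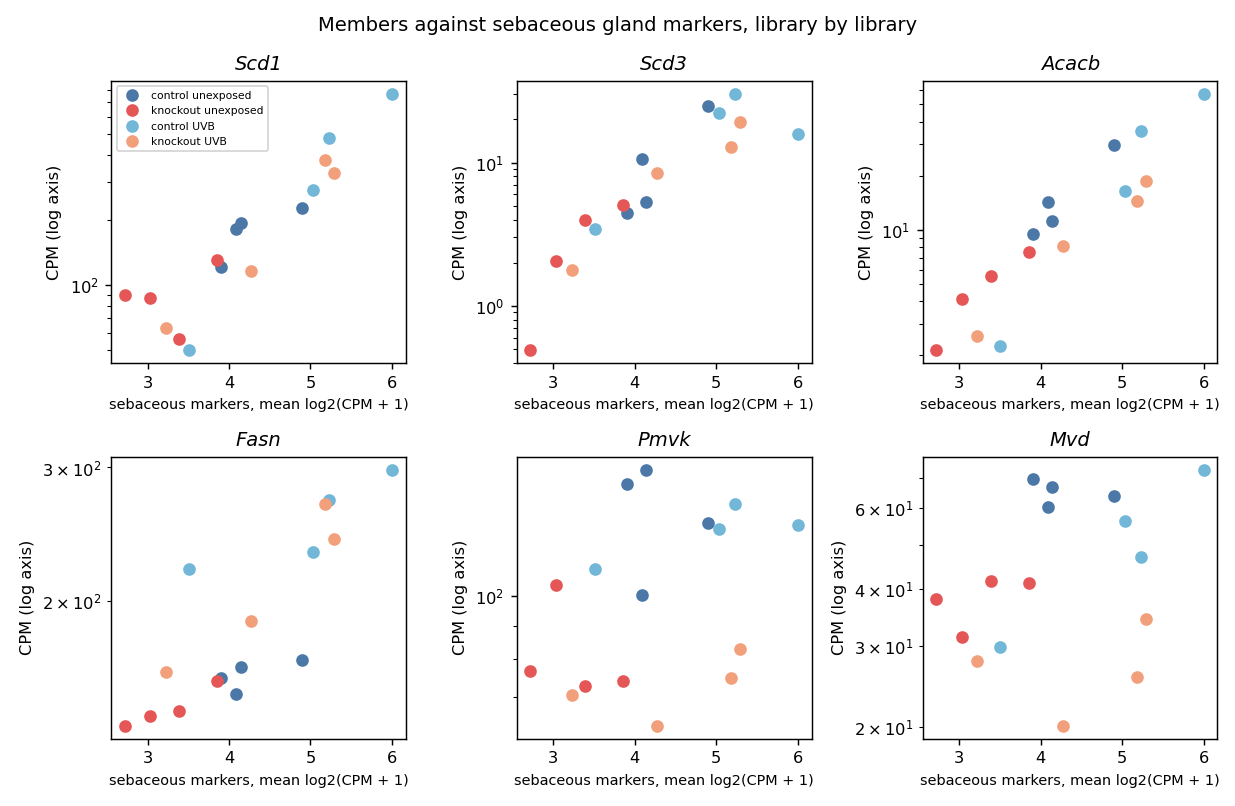
CPM (log axis) of Scd1, Scd3, Acacb, Fasn, Pmvk and Mvd against the mean log2(CPM + 1) of 16 sebaceous gland markers (x axis), 1 point per library, coloured by group. Acacb, which ordered 23 of 24 library pairs as the markers did, climbs with them within groups, and Pmvk, which ordered 15, does so less.

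Acacb, Scd3, Scd1 and Elovl5 also had the widest spread among the members within groups: the SD of log2(CPM + 1) around the group mean was 1.16, 1.11, 1.10 and 0.98. The median was 0.226 for the 35 members and 0.279 over all tested genes. The part of sebaceous gland content in the differences of these 4 genes was not tested.

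UVB moved members in both directions. In the control 4 rose and 6 fell, against 17.7% of all tested genes higher and 18% lower. In the knockout 6 rose and 5 fell, against 18.1% higher and 14.1% lower. The shares of members were near the background, and the median log2 fold change of the members was -0.10 in the control and 0.04 in the knockout. Lss, Msmo1, Scap and Fasn rose in both genotypes, and Hmgcs1, Dhcr7, Acaca, Scd2 and Stard4 fell in both. Without control UVB library 1 the control count of risen members was 7, and without control UVB library 2 the count of fallen members was 10. In the knockout the count of fallen members was 3 without knockout unexposed library 1 or knockout UVB library 2. Without knockout unexposed library 4, 5 rose and 6 fell: Msmo1 lost its call (edgeR adjusted p = 0.138) and Fdft1 gained one (0.0217).

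**Figure D5:**
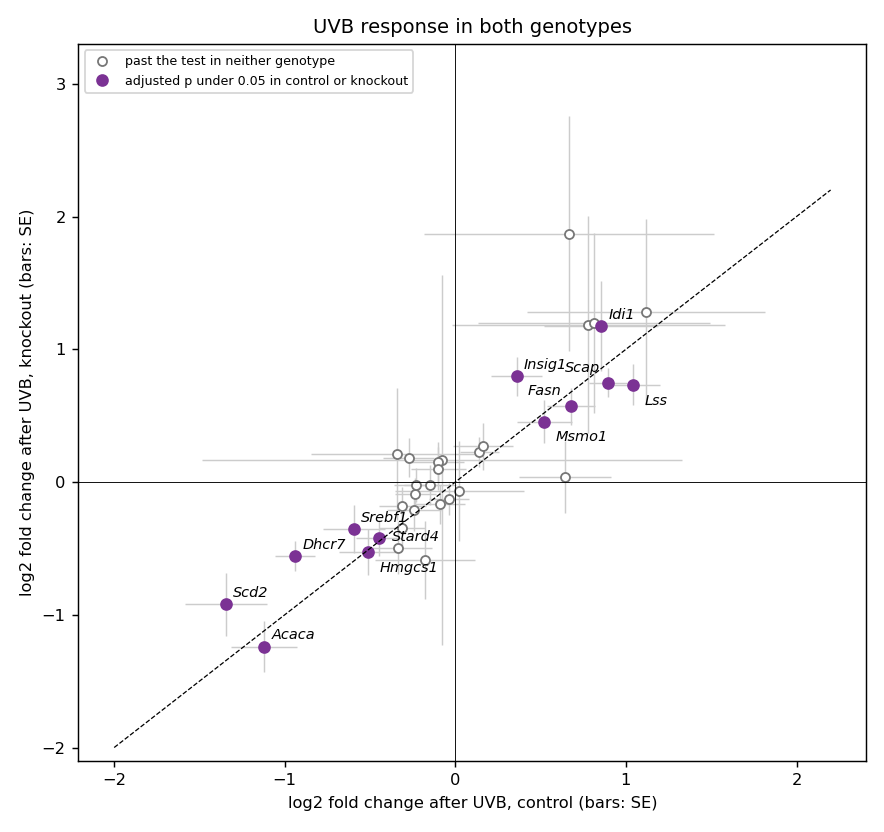
Log2 fold change of each member after UVB in the control (x axis) against that in the knockout (y axis), with bars of ±1 SE and the line of equal change. Filled points passed the test in at least 1 genotype; Lss, Msmo1, Scap and Fasn lie above 0 on both axes, and Hmgcs1, Dhcr7, Acaca, Scd2 and Stard4 below 0 on both.

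In all, 3 members had every control UVB library above every control unexposed library (Lss, Scap and Fasn) and 6 had every one below (Hmgcs1, Mvk, Dhcr7, Srebf1, Acaca and Scd2), against 16.3% and 17.5% of all genes. In the knockout 7 were above (Idi1, Lss, Msmo1, Insig1, Scap, Fasn and Acly) and 3 below (Fdps, Dhcr7 and Acaca), against 19.7% and 16.1%.

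In the mevalonate arm 5 of the 6 estimates were negative after UVB in each genotype, and that of Idi1 was positive in both. The median was -0.21 in the control and -0.33 in the knockout. Hmgcs1 fell to 188, 279.6, 203 and 293 CPM in the control and to 268, 183, 188 and 150.3 CPM in the knockout, from the unexposed levels above. The control groups did not overlap, and knockout UVB library 1 was above the lowest knockout unexposed libraries. Its log2 fold change was -0.51 ± 0.17 in the control and -0.53 ± 0.17 in the knockout (edgeR adjusted p = 0.0253 and 0.0221). The control call was lost without control unexposed library 3 or 4 or control UVB library 1 or 3, and the knockout call without knockout unexposed library 1 or 3 or knockout UVB library 2, 3 or 4. Idi1 was at 6.69, 6.29, 2.24 and 6.61 CPM in control unexposed and 6.65, 12.1, 7.12 and 13.7 CPM in control UVB libraries, an estimate of 0.85 ± 0.34 that did not pass (adjusted p = 0.0526). In the knockout it rose from 3.97, 3.88, 4.24 and 2.62 CPM to 9.60, 9.71, 4.61 and 9.39 CPM without overlap, by 1.17 ± 0.34 (adjusted p = 0.0103). Pmvk and Mvd passed in neither genotype.

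Among the sterol enzymes, Lss and Msmo1 rose and Dhcr7, the last enzyme of one branch to cholesterol, fell. Lss rose by 1.04 ± 0.15 in the control and 0.73 ± 0.15 in the knockout (edgeR adjusted p = 2.16e-05 and 0.000844), with no overlap in either. Msmo1 rose by 0.52 ± 0.16 and 0.46 ± 0.16 (adjusted p = 0.0139 and 0.0327) in the control and the knockout. Control UVB library 1 was below the unexposed libraries, and in the knockout the groups did not overlap. Its call in the control was lost without control UVB library 2 or 4, and its call in the knockout was lost in 8 of the 16 refits. The knockout call was also lost with median-of-ratios scaling, upper-quartile scaling, no filter and DESeq2, with adjusted p up to 0.0828.

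Dhcr7 was at 262, 281, 307 and 295 CPM in control unexposed and at 134, 149, 158 and 157 CPM in control UVB libraries. In the knockout it was at 223, 205, 244 and 218 CPM unexposed and at 175, 155, 152 and 123 CPM after UVB. All 4 exposed libraries were below all 4 unexposed ones in each genotype. The log2 fold changes were -0.94 ± 0.12 and -0.56 ± 0.12 (edgeR adjusted p = 2.99e-06 and 0.000806).

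Of the regulators, Scap rose most plainly. It was at 139, 119.7, 128 and 117 CPM in control unexposed and 238, 257, 234 and 208 CPM in control UVB libraries, and at 132, 121, 129 and 127 and then 194, 207, 205 and 251 CPM in the knockout. There was no overlap in either genotype, and the changes were 0.90 ± 0.11 and 0.75 ± 0.11 (edgeR adjusted p = 2.68e-06 and 2.77e-05). An opposite-strand gene of 4 counts in all, 5830462I19Rik, overlaps Scap on 13.2% of its exon bases.

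Insig1 was at 52.95, 37.2, 44.3 and 50.4 CPM in control unexposed and 50, 55.8, 73.9 and 57.4 CPM in control UVB libraries, which overlapped (0.36 ± 0.15, edgeR adjusted p = 0.0631). In the knockout it rose from 30.5, 34.2, 33.4 and 32.3 CPM to 62.8, 64.2, 54.3 and 45.2 CPM, all above the unexposed libraries (0.80 ± 0.15, adjusted p = 0.000267). Srebf1 fell in the control to 32.3, 57.3, 38.1 and 60.8 CPM, all below the unexposed libraries (-0.60 ± 0.18, adjusted p = 0.0144), a call lost without control UVB library 1. In the knockout it was at 56.5, 50.7, 41.9 and 35.4 CPM, where library 1 lay within the unexposed range (-0.36 ± 0.18, adjusted p = 0.154). Stard4 fell by 0.45 on the log2 scale in the control and by 0.42 in the knockout (adjusted p = 0.0147 and 0.0225), with overlap in both, and the knockout call was lost without knockout unexposed library 1 or knockout UVB library 2.

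The genes of fatty acid synthesis split. Acaca, acetyl-CoA carboxylase 1, was at 95.5, 130.2, 141 and 117 CPM in control unexposed and 46.4, 42.3, 64.6 and 69.1 CPM in control UVB libraries. In the knockout the unexposed libraries were at 89.8, 80.7, 99.3 and 129 CPM and the UVB libraries at 49.1, 43.1, 47.7 and 29.0 CPM. No exposed library reached an unexposed one, and the log2 fold changes were -1.12 ± 0.19 and -1.24 ± 0.19 (edgeR adjusted p = 0.000105 and 4.59e-05). Acaca spans 272 kb, and 35.1% of the 2479 tested genes longer than 100 kb fell in the control and 38.2% in the knockout, against 18% and 14.1% of all genes. The part of gene length in the fall of Acaca was not tested. Acacb (104 kb) and Elovl6 (106 kb), the other members of that length, did not pass.

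Fasn rose to 220.3, 272, 232 and 298 CPM in the control and to 241, 269, 161 and 188 CPM in the knockout. Every exposed library was above every unexposed library of its genotype. The changes were 0.68 ± 0.14 and 0.57 ± 0.14 (edgeR adjusted p = 0.000752 and 0.00341). Fasn ordered 22 of the 24 library pairs as the sebaceous gland markers did. Of the 15 markers tested, 2 were higher and 2 lower after UVB in the control, and 6 higher and 2 lower in the knockout. Their estimates were positive for 13 and negative for 2 in each genotype, with a median of 1.43 in the control and 2.23 in the knockout. The part of those markers in the rise of Fasn was not tested.

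Scd2, a desaturase found in skin and brain, was at 169.8, 169, 187 and 228 CPM in control unexposed and at 62.7, 99.8, 59.2 and 75.1 CPM in control UVB libraries. In the knockout it was at 196, 162, 151 and 99.3 CPM and then at 113, 75.3, 86.0 and 46.5 CPM. The control groups did not overlap, and in the knockout exposed library 1 was above unexposed library 4. The changes were -1.34 ± 0.24 and -0.92 ± 0.24 (edgeR adjusted p = 0.000246 and 0.00567). Its paralog Scd1 had positive estimates of 1.12 ± 0.70 and 1.28 ± 0.70 that did not pass (adjusted p = 0.247 and 0.202). The other elongases and desaturases passed in neither genotype.

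The responses to UVB were then compared between genotypes. For 0 of the 35 members did the difference pass (edgeR adjusted p under 0.05, 0% of all tested genes called), and DESeq2 and limma voom also called 0 members. At an unadjusted p under 0.05, 3 members had a more positive response in the knockout and 0 a more negative one, against 3.43% and 2.45% of all tested genes. The median difference of the members was 0.12 in all libraries and 0.0068 without knockout unexposed library 4. These were Dhcr7 (0.38 ± 0.16, adjusted p = 0.797), Ebp (0.46 ± 0.21, adjusted p = 0.833) and Insig1 (0.44 ± 0.21, adjusted p = 0.844). So Idi1, Insig1 and Srebf1, called in 1 genotype each, are not shown to respond differently.

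Other genes of these pathways were read from lists that contain no member. Of 18 tested further genes of sterol synthesis and SREBP function, 14 had a negative and 4 a positive estimate in the knockout without UVB, with a median of -0.16. After UVB 9 were negative and 9 positive, with a median of -0.06, against 28 negative of the 35 members. With UVB 12 estimates were negative in the control (median -0.23) and 10 in the knockout (median -0.14). Of 14 genes of sterol efflux, esterification and oxysterol metabolism, Cyp7b1, an oxysterol hydroxylase, was higher in the knockout without UVB (1.57 ± 0.32, edgeR adjusted p = 0.0106) and after it (1.41 ± 0.31, adjusted p = 0.0124), and the other 13 did not pass. With UVB 4 were higher and 2 lower in each genotype.

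Of 31 further genes of fatty acid metabolism, 0 were higher and 3 lower in the knockout without UVB: Elovl7, Fads6 and Dgat2, of which Dgat2 makes triglyceride. After UVB 2 were higher (Cpt1a and Acadl, of fatty acid oxidation) and 3 lower, among them Hacd2, of the elongation cycle, and Dgat2. With UVB 10 were higher and 5 lower in the control, and 9 higher and 5 lower in the knockout.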

How the data were processed

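RNA sequencing measured transcript levels in 16 epidermal libraries, 4 per group, with groups taken from the titles and treatment labels. Libraries were made with a directional NEBNext kit per the labels' protocols, and FastQC, STAR, HTSeq and DESeq2 were used per the submitters' processing notes. For versions, genome build and strand setting, no source used here gives a value. From their reads the authors deposited raw counts per Ensembl gene, whole numbers with totals that differ between libraries. Symbols came from GENCODE M21 (GRCm38): 49326 of 49585 genes had one.

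The filter filterByExpr left 17741 genes, with at least 99.94% of each library's counts. These were analysed with the quasi-likelihood functions of edgeR 4.0.16 (R 4.3.3), with TMM factors, the robust option and a mean for each of the 4 groups. P-values were two-sided and were adjusted over every tested gene (Benjamini-Hochberg, 0.05). Genotypes were compared at each exposure, exposures within each genotype, and then the 2 UVB responses with each other. SE is the log2 fold change over the square root of F. Scores of library pairs used log2(CPM + 1). Alternatives were DESeq2 1.42.0, limma voom 3.58.1, median-of-ratios and upper-quartile scaling, no filter, the compared groups alone and leaving out each library. A term for libraries with Xist or Y-linked counts was added after the data were seen. The procedure was tested on simulated data. Of 100 genes changed 2-fold, edgeR called 44 to 50 in the comparisons of 2 groups and 29 for the difference between UVB responses. False calls numbered 4 to 8. Many changes of 2-fold or less would thus be missed. Promoter sequences are RefSeq's. Figures were drawn with matplotlib 3.10.9 in Python 3.11.15, and tables were joined with pandas 2.3.3.

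The members and the gene lists were chosen with earlier results of these data known. All 35 members were counted in each comparison. Values in every library are given for members past the test in at least 1 comparison, the 3 with the smallest p in each comparison, and Hmgcs1, Sqle, Insig1, Srebf1, Srebf2, Fasn and Scd1. Other members with values (Mvk, Elovl6 and others) were named after their values were seen. The calls within the list of further sterol genes, and 1 gene of fatty acid metabolism, are not reported here.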

Additional observations from a re-analysis of the deposited data

Results flagged for a closer look

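In 8 of 140 groups of 4 libraries (35 members in 4 groups), 1 library lay far from the other 3 relative to the range of the group. Chance flags about 1 in 20 groups.

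Sqle was at 214 CPM in control unexposed library 4, against 193 to 194 CPM in the other 3, and at 180 CPM in knockout UVB library 1, against 155 to 157 CPM. Idi1 was at 2.24 CPM in control unexposed library 3, against 6.29 to 6.69 CPM, and at 4.61 CPM in knockout UVB library 3, against 9.39 to 9.71 CPM. In knockout unexposed library 3, Pmvk was at 104 CPM against 72.7 to 76.7 CPM, and Tm7sf2 at 25.6 CPM against 19.0 to 19.6 CPM. Insig2 was at 125 CPM in control UVB library 4, against 82.8 to 86.6 CPM. Stard4 was at 147 CPM in control UVB library 2, against 99.2 to 106 CPM in the other 3.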

How the results depend on the processing

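For 16 members past the test or with the smallest p in a comparison, 34 fold changes were recomputed, and none of the 34 changed sign under the alternatives run. The count of members lower in the knockout without UVB, 4, was 2 with upper-quartile scaling, 8 with DESeq2 and 7 with the 2 compared groups alone, and 0 to 4 when 1 library was left out. After UVB the count of 6 was 2 with the 2 compared groups alone, and 3 to 7 with 1 library left out. For UVB in the control, leaving out 1 library gave 3 to 7 members higher (main 4) and 4 to 10 lower (main 6). For UVB in the knockout it gave 5 to 6 higher (main 6) and 3 to 7 lower (main 5), and DESeq2 gave 8 lower. Counts of members higher in the knockout and of different responses were 0 in every fit. The reason for these shifts was not tested.

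Scaling moved the median of all tested genes by at most 0.0875 on the log2 scale. The split of all genes called after UVB in the knockout was 3207 higher and 2503 lower with TMM and 2746 and 2894 with upper-quartile scaling. Without UVB the knockout had 171 higher and 202 lower genes with TMM, 179 and 154 with median-of-ratios scaling and 180 and 136 with upper-quartile scaling. Each group held 2 libraries with Xist and 2 with Y-linked counts. With a term for these, added after the data were seen, 0 members were called for the term, 4 were lower in the knockout without UVB and 7 after it. With the compared groups alone, 34 of the 35 members passed the filter in 3 of 4 comparisons. The lowest member, Fads2 (0.0545 CPM per kb in the control unexposed libraries), had SEs of 1.39 to 1.98 on the log2 scale, and no change in it was detectable at this depth. No paired analysis was possible because replicate numbers follow the order of the records and tie no library to another.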
